A study of Drosophila melanogaster with 19 samples.

Results

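The 9 genes described here carry or restrain signalling through the epidermal growth factor (EGF) receptor of Drosophila: Egfr, spi, S, ru, pnt, aop, aos, kek1 and sty. They were chosen by name from the 17735 genes of the deposited table, and each name matched 1 row. Polyadenylated RNA was sequenced from single embryos of H2AvD-RFP flies, which carry a red fluorescent histone. Control embryos were not injected and were collected in nuclear cycle 12 (C12), cycle 13 (C13), early cycle 14 (C14E) and late cycle 14 (C14L). Arrested embryos were held in cycle 12 by RNA interference against the 3 mitotic cyclins CycA, CycB and CycB3 and were collected 15, 30, 50 and 70 minutes after mitosis 11 (C12-15min to C12-70min). Because no control was injected, arrest, injection and RNA interference cannot be told apart in any comparison of arrested with control embryos. C12-70min also differs from C14L in age, and the paper describes the C12-70min embryos as drastically younger.

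The table holds the log2 of CPM plus 1 (CPM, the assigned reads of a gene scaled to a common library total), as 1 mean for each of the 8 conditions. C13 and C14E are means of 3 embryos and the other conditions of 2 embryos, since the authors left 1 of the 3 labelled C12 embryos out. Values of single embryos were worked back from the decimals of the means wherever a single combination of whole reads gave the mean. The embryos had from 35957712 to 57998963 assigned reads, so that 3 reads correspond to about 0.0653 CPM in the shallower C12 embryo. Transcripts of the targeted cyclins were low from 30 minutes of arrest on: CycA had a mean of 2626 CPM in C12, 1799 CPM at C12-15min and from 13.4 to 28.9 CPM at the later times. The median of the genes that reached 10 CPM in all conditions lay 0.56 below C12 in C14L and 0.65 below C12 at C12-70min on the log2 scale. The CPM of one gene is thus relative to a library whose composition changed.

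In this pathway the ligand Spitz (spi) is made as an inactive membrane protein. Star (S) carries it out of the endoplasmic reticulum, and proteases of the Rhomboid family, among them Rhomboid (rho) and Roughoid (ru), cut it free. The bound receptor works through Ras and the MAP kinase cascade, which activates the ETS transcription factor Pointed (pnt) and removes the ETS repressor Yan (aop) from its targets. Argos (aos), which sequesters Spitz, Kekkon1 (kek1), which binds the receptor, and Sprouty (sty), which acts inside the cell, dampen the signal. In the embryo the pathway is known for patterning the ventral ectoderm.

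Ensembl annotation of the dm6 assembly places spi (chr2L:19567900-19577315), S (chr2L:1049674-1077815), aop (chr2L:2156484-2178754) and kek1 (chr2L:12817000-12822787) on the minus strand of chromosome arm 2L. Egfr (chr2R:21522420-21559977) lies on the plus strand of 2R. On 3L, ru (chr3L:1370628-1387437) lies on the plus strand, while aos (chr3L:16470386-16483650) and sty (chr3L:3401153-3424935) lie on the minus strand, as does pnt (chr3R:23290231-23346167) on 3R. Only the exons of aop overlap those of another gene, CG15382 on the opposite strand, over 307 bases, and whether the counting used strand is not given in the sources used here.

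Between C12 and late cycle 14 the receptor, its ligand and its inhibitors aos and sty became far more abundant in control embryos, while S, pnt and aop first lay lower and then higher. In C13 only Egfr was above C12 by a fold change over 1.5 between means of CPM plus 1, against 4.14% of all genes, and spi, S, pnt and aop were lower, against 11%. In C14E 5 genes were higher (Egfr, spi, aos, kek1 and sty), against 11.7%, and S, pnt and aop were lower, against 16.6%. In C14L, 7 of the 9 genes were above C12, against 19.5% of all genes (Egfr, spi, S, pnt, aop, aos and sty). None was lower, against 16.0% of all genes. The median difference of the 9 genes was 1.9 on the log2 scale and over the 6288 genes that reached 10 CPM in C12 or C14L it was -0.19. Of all genes in the table, 52.5% stayed below 1 CPM in every condition and could hardly pass, so these shares are a low background for abundant genes.

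The arrested embryos differed from C12 in few of these genes at first. At C12-15min Egfr was higher, against 2.76% of all genes, and pnt lower, against 0.75%. In the limma test of single embryos described below, neither gene passed at this time. The log2 differences there were 1.56 (SE 1.86) for Egfr and -0.90 (SE 0.55) for pnt. At C12-30min Egfr, kek1 and sty were higher, against 6.99%, and S, pnt, aop and aos lower, against 16.1%. At C12-50min Egfr and sty were higher, against 11.5%, and spi, S, pnt and aop lower, against 17.2%.

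At 70 minutes of arrest the Egfr mean was high, while spi, S, pnt, aop, aos and sty were well below their levels in C14L. At C12-70min, 4 genes were above C12 (Egfr, spi, aos and sty), against 16.8% of all genes. S and aop were lower, against 18.6% of all genes. Relative to C14L, 6 genes were lower at C12-70min (spi, S, pnt, aop, aos and sty), against 21.4% of all genes, and none was higher, against 12%. Their mean CPM was between 2.63% (sty) and 17.9% (pnt) of that in C14L, whereas that of Egfr was 75.1%.

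**Figure D1:**
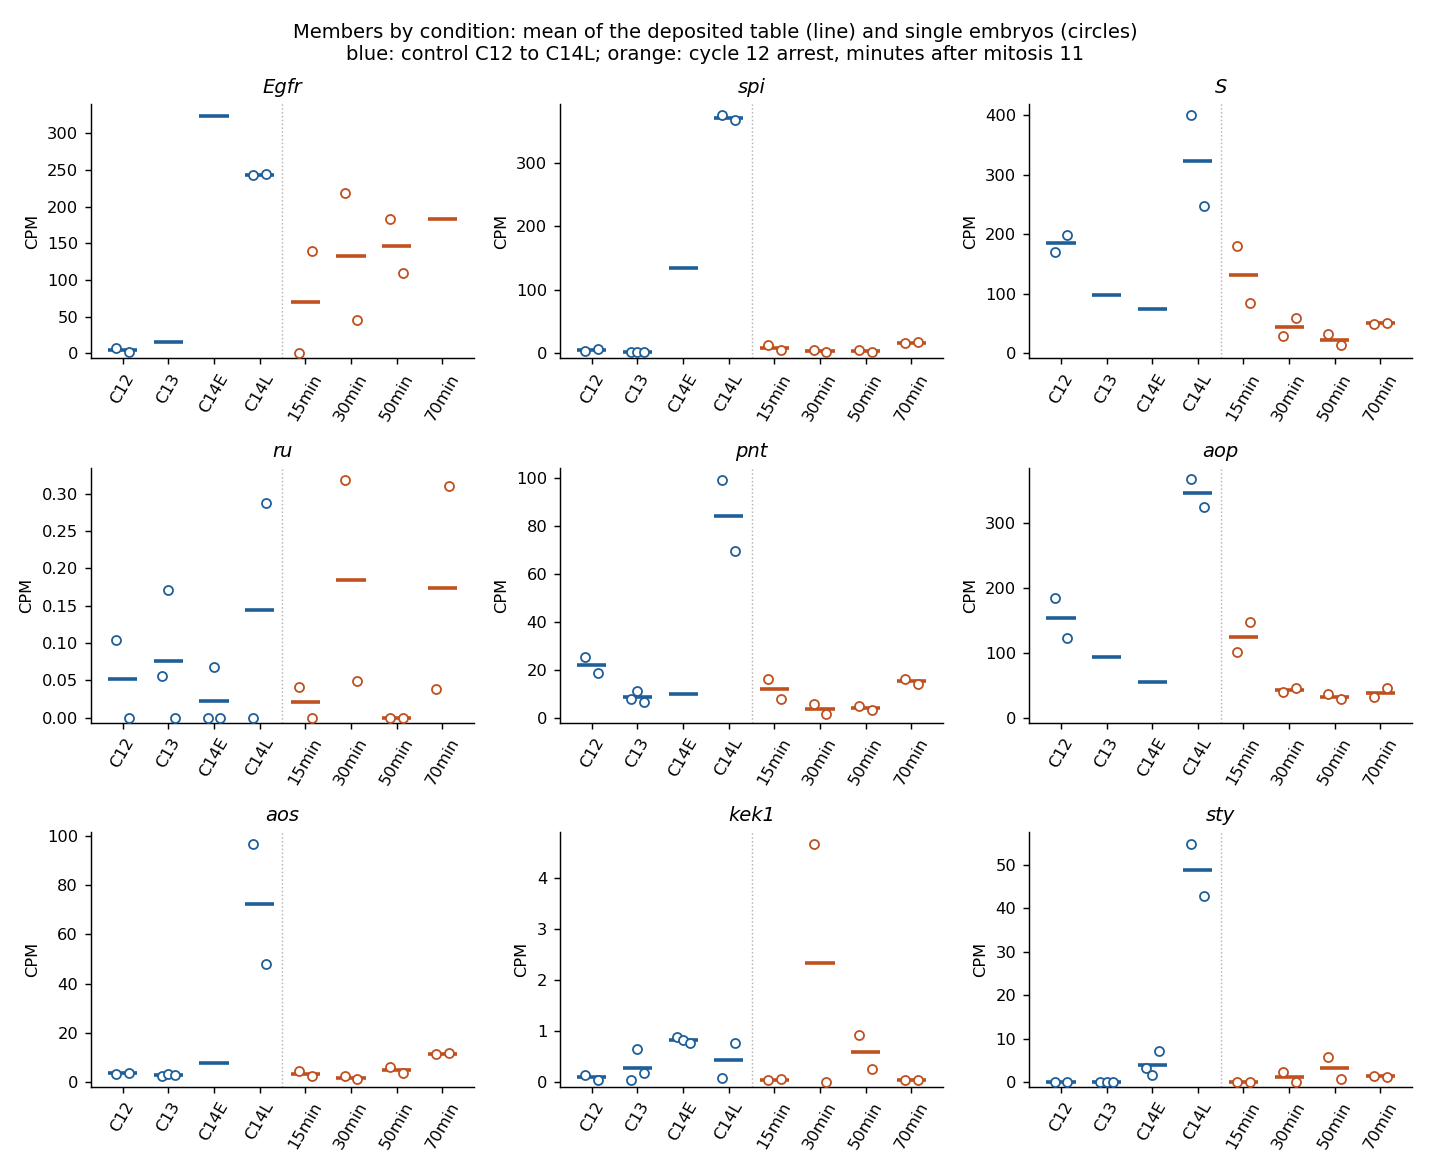
Abundance in CPM (y axis, a separate linear scale for each gene) of the 9 genes in 4 control and 4 arrested conditions. Lines are the authors' condition means and circles are single embryos with a single solution; C14E of most genes, C13 of Egfr, S and aop, and C12-70min of Egfr have no circles. The 2 C14L embryos lie above both C12 embryos for Egfr, spi, S, pnt, aop, aos and sty, and the 2 C12-15min embryos of Egfr lie at 0.369 and 140 CPM.

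The single embryos of 6 conditions were compared with limma on log2(CPM + 1), with p-values adjusted over all genes tested. In C14L against C12, 6 of the 8 genes tested rose (Egfr, spi, pnt, aop, aos and sty), against 29.6% of the genes tested. None fell, against 25.2% of the genes tested. At an unadjusted p under 0.05, for which no share of all genes was computed, none had a lower value either. At C12-70min against C12, aos was the 1 gene of 7 tested that rose, against 22.4%, and S and aop fell, against 34.4%. At C12-70min against C14L, spi, S, pnt, aop, aos and sty fell, which is 6 of 7 genes tested against 35.1%. None rose, against 11.2%, and none was higher at an unadjusted p under 0.05. ru stayed below the 1 CPM that the test required, and Egfr had no single solution at C12-70min. With 1 embryo left out at a time, no comparison gave more calls among these genes than the full fit. A smaller share of all genes tested also passed in each such fit. Calls among these genes were fewest for C14L against C12 without the C12 embryo with fewer reads. For C12-70min against C12 they were fewest without that embryo or either C12-70min embryo. For C12-70min against C14L they were fewest without the C14L embryo with more reads.

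**Figure D2:**
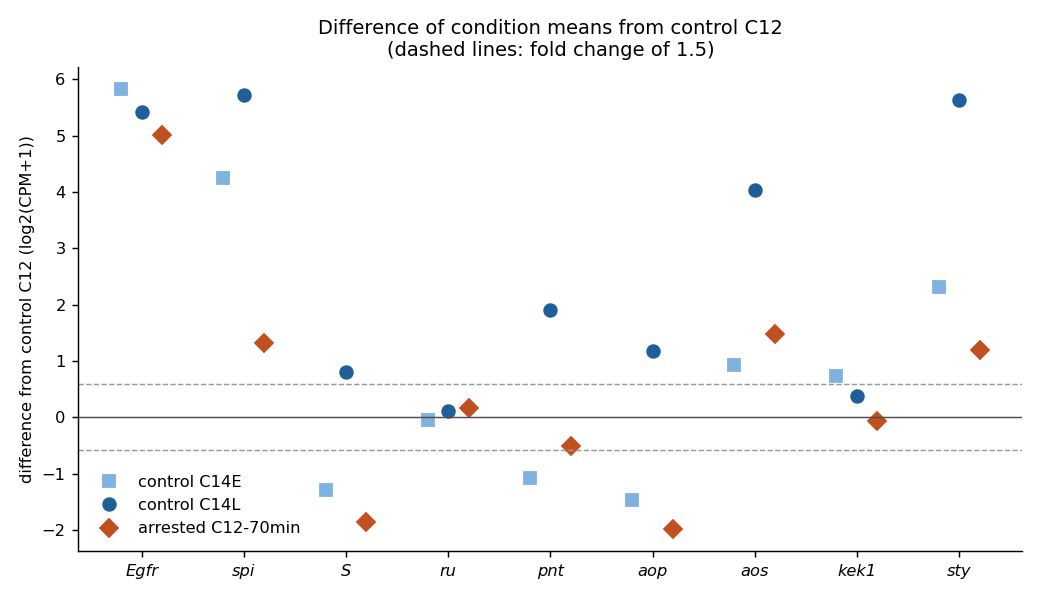
Difference of the condition mean from control C12, in log2(CPM + 1), for the 9 genes in C14E (squares), C14L (circles) and C12-70min (diamonds). Dashed lines mark a fold change of 1.5; S, pnt and aop lie below 0 in C14E and at C12-70min and above 0 in C14L.

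The receptor gene Egfr was at 7.91 and 1.48 CPM in the 2 C12 embryos and at 243 and 244 CPM in the 2 C14L embryos. Its mean was 15.3 CPM in C13 and 324 CPM in C14E, the highest of the 8 conditions. The C14L mean was thus 51.8 times that of C12, and the rise was 5.70 ± 1.86 (SE) on the log2 scale (limma, adjusted p = 0.0317). This call was lost whenever 1 embryo of either condition was left out and without the filter on low values.

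In arrested embryos Egfr was variable. The 2 embryos of C12-15min had 0.369 and 140 CPM, so that 1 embryo accounts for nearly all of the mean of 70.1 CPM. The same 2 embryos had 0.616 and 75.5 CPM of twi, 4.80 and 73.0 CPM of sna and 0.205 and 15.5 CPM of rho, 3 genes transcribed early in the ventral and lateral embryo. For all 4 genes the embryo with more reads was the low one. Both are used here as labelled. The same order was seen for twi, sna and rho in C12 and at C12-30min. In C12 the embryo with 7.91 CPM of Egfr had 12.8 CPM of twi and 4.33 CPM of rho, and the one with 1.48 CPM had 1.87 and 0.152 CPM. At C12-30min the embryo with 219 CPM of Egfr had 119 CPM of twi and 30.1 CPM of rho, and the one with 45.3 CPM had 31.8 and 3.51 CPM. At C12-50min the embryo with 183 CPM of Egfr had more twi (61.5 against 54.4 CPM) and rho (15.3 against 10.6 CPM). It had less sna (26.7 against 46.8 CPM). In C14L the embryo with 244 CPM of Egfr had less twi (258 against 334 CPM) and rho (43.3 against 45.3 CPM). Its sna was higher (193 against 153 CPM). The part of these differences between embryos in the Egfr values was not tested.

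Later in the arrest no embryo was as low. Egfr had 219 and 45.3 CPM at 30 minutes and 183 and 110 CPM at 50 minutes, all above both C12 embryos. The limma differences from C12 were 4.42 ± 1.86 (adjusted p = 0.128) and 4.93 ± 1.86 (adjusted p = 0.0713), so neither passed. At C12-70min the mean was 183 CPM, and 3 pairs of whole reads gave it, with 60.8, 100 or 139 CPM in one embryo and 305, 266 or 226 CPM in the other. With each pair entered in turn, the rise from C12 ran from 4.87 to 5.25 on the log2 scale (limma, adjusted p from 0.0307 to 0.0476). The difference from C14L ran from -0.83 to -0.45, with SEs from 1.76 to 1.84 (adjusted p from 0.726 to 0.846). These SEs leave room for differences of several fold in either direction. Without the 2 C12-15min embryos in the fit, the SE for C14L against C12 was 0.81 and the adjusted p was 0.00078.

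The ligand gene spi followed another course. Its transcripts were at 4.52 and 7.66 CPM in the C12 embryos and from 2.03 to 2.39 CPM in the 3 C13 embryos. They reached a mean of 134 CPM in C14E and 374 and 368 CPM in the C14L embryos. The mean in C14L was 60.9 times that in C12, a rise of 5.75 ± 0.55 on the log2 scale (limma, adjusted p = 5.38e-05). The 2 C14L embryos differed little from each other and lay far above every other embryo solved.

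In the arrested embryos spi stayed low. It was at 12.7 and 5.17 CPM at 15 minutes, 5.64 and 1.99 CPM at 30 minutes and 4.80 and 2.26 CPM at 50 minutes. At C12-70min the embryos had 16.0 and 17.4 CPM, above both C12 embryos. The difference of 1.36 ± 0.55 from C12 did not pass (limma, adjusted p = 0.0622). It passed without the 2 C12-15min embryos, without a mean-variance trend and with centred values. Against C14L, spi fell by 4.39 (SE 0.55; limma, adjusted p = 0.000628), which left 4.51% of the C14L mean. At C12-70min the mean of Egfr was 38.9 times that in C12 and the mean of spi 2.75 times. The Egfr difference of 5.01 on the log2 scale was 6.21 without the C12 embryo with more reads and 4.37 without the one with fewer.

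S, which serves the export of the Spitz precursor, was already abundant in C12, at 171 and 199 CPM. Its mean was 98 CPM in C13, 74.6 CPM in C14E and 323 CPM in C14L, where the embryos had 400 and 247 CPM. The C14L mean was 1.75 times that of C12, but the difference of 0.77 ± 0.51 did not pass (limma, adjusted p = 0.232), although both C14L embryos were above both C12 embryos. With centred values it passed.

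During arrest the mean of S was below that of C12 at each time. The embryos had 180 and 83.7 CPM at 15 minutes, 28.9 and 58.7 CPM at 30 minutes and 33.2 and 13.4 CPM at 50 minutes. From C12 to C12-50min S fell by 3.06 on the log2 scale (SE 0.51; limma, adjusted p = 0.0063). At C12-70min the embryos had 49.5 and 51.5 CPM, which is above both C12-50min embryos and below both C12 embryos. The fall from C12 was 1.85 ± 0.51 (adjusted p = 0.0142), and it did not pass with centred values, nor without a filter on low values. This call was also lost without the C12 embryo with fewer reads and without either C12-70min embryo. Against C14L, S fell by 2.62 (SE 0.51; limma, adjusted p = 0.00445).

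ru, the Rhomboid-family protease, was hardly detected. No embryo had more than 14 reads, and the means ran from 0 CPM at C12-50min to 0.184 CPM at C12-30min. At this depth no difference of ru between conditions was detectable.

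The ETS activator pnt and the ETS repressor aop both had a low phase and a late high level in control embryos. pnt was at 25.3 and 18.5 CPM in C12, from 6.34 to 11.3 CPM in the 3 C13 embryos and at a mean of 9.79 CPM in C14E. It reached 99.5 and 69.5 CPM in C14L, above every other embryo solved, a rise of 1.9 ± 0.55 from C12 on the log2 scale (limma, adjusted p = 0.017). This call was lost without the C12 embryo with fewer reads and without the C14L embryo with more reads. aop was at 184 and 123 CPM in C12, and its mean was 93.7 CPM in C13 and 55.0 CPM in C14E. It reached 368 and 324 CPM in C14L, a rise of 1.20 ± 0.28 (limma, adjusted p = 0.0066), which was lost without the C12 embryo with fewer reads. From C14E to C14L the means of pnt and aop were 8.63 and 6.30 times higher.

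In the arrest, pnt reached its lowest levels at the middle times and aop stayed low to the last. pnt was at 16.1 and 7.64 CPM at 15 minutes, 5.83 and 1.62 CPM at 30 minutes, 5.07 and 3.04 CPM at 50 minutes and 16.0 and 14.2 CPM at 70 minutes. At C12-30min it fell by 2.42 from C12 (SE 0.55; limma, adjusted p = 0.036), and at C12-50min it fell by 2.19 (SE 0.55; limma, adjusted p = 0.0181). At C12-70min it was above both C12-50min embryos, and its difference from C12 of -0.49 ± 0.55 did not pass (adjusted p = 0.464). Between condition means this difference was -0.50 as deposited and 0.15 with centred values. Against C14L it fell by 2.38 (SE 0.55; limma, adjusted p = 0.00882), a call that was lost without the C14L embryo with more reads.

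aop was at 101 and 147 CPM at 15 minutes, 39.7 and 45.1 CPM at 30 minutes, 36.4 and 28.1 CPM at 50 minutes and 31.3 and 45 CPM at 70 minutes. From 30 minutes on, every embryo was below both C12 embryos. aop fell from C12 to C12-70min by 1.97 (SE 0.28; limma, adjusted p = 0.0014). This was the one call of this comparison that held in every fit with 1 embryo left out. Against C14L it fell by 3.17 (SE 0.28; adjusted p = 0.000181).

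S, pnt and aop were also the 3 genes that fell at the middle times. At C12-30min 3 of 8 genes tested fell, against 13.6% of the genes tested, and at C12-50min again 3 of 8, against 24.8%. By limma no gene of the 9 rose at these times, against 1.26% and 10.2%. At an unadjusted p under 0.05, 1 gene was higher at C12-30min (Egfr) and 2 at C12-50min (Egfr and sty). The share of all genes at this unadjusted threshold was not computed.

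Among the inhibitors, aos was the only one detected in each embryo solved. It was at 3.41 and 3.53 CPM in C12, from 2.56 to 3.37 CPM in the 3 C13 embryos, at a mean of 7.53 CPM in C14E and at 96.8 and 48.0 CPM in C14L. The C14L mean was 20.9 times that in C12, a rise of 3.95 ± 0.50 (limma, adjusted p = 0.000218). The 2 C14L embryos differed from each other but were far above every other embryo solved.

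In the arrest aos was at 4.52 and 2.29 CPM at 15 minutes, 2.30 and 1.18 CPM at 30 minutes, 5.92 and 3.47 CPM at 50 minutes and 11.2 and 11.7 CPM at 70 minutes. The last 2 embryos were above all other arrested and all C12 embryos. aos rose from C12 to C12-70min by 1.48 ± 0.50 (limma, adjusted p = 0.0311), a call that was lost in each fit that left 1 embryo out. Against C14L it fell by 2.47 (SE 0.50; limma, adjusted p = 0.00504), a call that was lost without the C14L embryo with more reads.

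sty had no reads in the 2 C12, the 3 C13 and the 2 C12-15min embryos. In C14E the 3 embryos had 3.11, 1.55 and 7.17 CPM, and in C14L the 2 embryos had 54.8 and 42.8 CPM. Set against 3 reads in the shallower C12 library, the C14E mean was at least 60.4-fold higher than C12 and the C14L mean at least 747-fold higher. The limma call for C14L against C12 passed (adjusted p = 0.000134).

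In the arrest sty appeared but stayed low. The embryos had 2.21 and 0.0491 CPM at 30 minutes, 5.69 and 0.781 CPM at 50 minutes and 1.33 and 1.24 CPM at 70 minutes, where the mean was at least 19.6-fold higher than C12. The 2 70 minutes embryos had 70 and 56 reads against none in C12, yet the difference did not pass (limma, adjusted p = 0.144). It passed with a pseudocount of 0.1 and with centred values. Centring also shifts values of sty that rest on few or no reads. By the shift of C12-70min relative to C12 alone, the difference of means went from 1.19 to 1.84. Against C14L, sty fell by 4.44 (SE 0.65; limma, adjusted p = 0.00124).

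kek1 was near the detection limit. It had 8 and 2 reads in the C12 embryos, from 32 to 40 reads in the 3 C14E embryos and 4 and 32 reads in the C14L embryos. At C12-30min 1 embryo had 190 reads (4.66 CPM) and the other none, so the highest mean of this gene (2.33 CPM) rests on 1 embryo. At C12-70min both embryos had 2 reads. No limma comparison of kek1 passed.

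Compared with early cycle 14, the difference of C12-70min was smaller for most of these genes. C12-70min was lower than C14E for 4 genes (Egfr, spi, kek1 and sty), against 10.7% of all genes, and higher for none, against 7.5%. Its mean was 56.5% of the C14E mean for Egfr, 12.5% for spi and 32.5% for sty. For S and aop it was 67.6% and 69.4%, and for pnt and aos it was 155% and 152%, all within the fold change of 1.5 on the scale used. Single embryos of C14E were not solved for most of these genes, so no test was made. The paper states that the times of control and arrested embryos are not exactly matched, so age differs here too.

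Per kilobase of exon, the order of the 9 genes changed with time. In C12 the highest mean levels were those of S (35.5 CPM per kb) and aop (28.1 CPM per kb), and those of spi (3.35), pnt (3.57), aos (1.23) and Egfr (0.676) were far lower. In C14L spi was highest at 204 CPM per kb, followed by aop (63.5) and S (62.1), which were close to each other, and then Egfr (35.0), aos (25.7), pnt (13.8) and sty (8.97). At C12-70min Egfr was highest at 26.3 CPM per kb. It was followed by S (9.69), spi (9.21) and aop (7.0), then aos (4.06) and pnt (2.47). Neighbours in these orders overlapped in single embryos for S and aop in C12 and in C14L, for spi and pnt in C12 and for S and spi at C12-70min, where S had 9.5 and 9.89 and spi 8.83 and 9.59 CPM per kb. At C12-70min aop (5.73 and 8.26 CPM per kb) was below both. Egfr is highest by its mean only, since under 1 of its 3 solutions 1 embryo had 8.75 CPM per kb, below both embryos of S and of spi.

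The pathway as a whole was viewed through a list of 32 genes, the 9 included. In C14L against C12, 15 of the 32 were higher, against 19.5% of all genes, and 13 lower, against 16.0%, by the fold change of 1.5. At C12-70min against C12, 11 were higher, against 16.8%, and 15 lower, against 18.6%. Against C14L, 6 were higher, against 12%, and 20 lower, against 21.4%.

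Of the 8 genes for ligands and their processing, spi, vn and rho were higher than C12 in C14L and at C12-70min. The shares of all genes were 19.5% and 16.8%. grk, a ligand gene best known from the ovary, and stet, another Rhomboid-family gene, were lower in both, against 16.0% and 18.6% of all genes. Krn was lower in C14L alone, S was higher in C14L and lower at C12-70min, and ru was neither. rho, the protease that releases Spitz, had a mean of 2.24 CPM in C12, 57.6 CPM in C14E, 44.3 CPM in C14L and 12.9 CPM at C12-70min. It rose in C14L by 4.19 ± 1.33 (limma, adjusted p = 0.025), and its differences at C12-70min from C12 (2.31 ± 1.33) and from C14L (-1.88 ± 1.33) did not pass (adjusted p = 0.164 and 0.264). vn, a secreted ligand that needs no cleavage, had means of 3.45 CPM in C12, 41.4 CPM in C14L and 11.1 CPM at C12-70min. It rose in C14L by 3.16 ± 0.92 (limma, adjusted p = 0.0171). Its difference at C12-70min was 1.44 ± 0.92 from C12 and -1.71 ± 0.92 from C14L, neither of which passed (adjusted p = 0.202 and 0.149).

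Of the 12 genes from the receptor to the MAP kinase, 5 were higher (19.5% of all genes) and 5 lower (16.0%) in C14L than in C12, and 4 were higher (16.8%) and 7 lower (18.6%) at C12-70min. Sos, an exchange factor for Ras, had a mean of 18.2 CPM in C12, 239 CPM in C14L and 62.8 CPM at 70 minutes. csw, a tyrosine phosphatase, went from 294 CPM in C12 to 0.83 CPM in C14L and 8.54 CPM at 70 minutes. Dsor1, the MAP kinase kinase, was at 57.9 CPM in C12 and 64.4 CPM in C14L but at 7.58 CPM at C12-70min.

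Among the 4 nuclear effectors, pnt, aop and edl were higher in C14L than in C12, against 19.5% of all genes, and cic lower, against 16.0%. At C12-70min edl alone was higher, against 16.8%, and aop and cic were lower, against 18.6%. The means of cic were 457 CPM in C12, 159 CPM in C14L and 242 CPM at C12-70min, and it could not be tested by limma. edl, whose product binds ETS proteins, had a mean of 0.069 CPM in C12, 81.4 CPM in C14L and 6.21 CPM at C12-70min. By limma it rose in C14L by 6.24 ± 0.76 (adjusted p = 0.000185) and at C12-70min by 2.67 ± 0.76 (adjusted p = 0.0162). Against C14L it fell at C12-70min by 3.57 (SE 0.76; adjusted p = 0.00653). Of the 8 inhibitors, aos, sty and Mkp3 were higher than C12 both in C14L and at C12-70min, against 19.5% and 16.8% of all genes. Spred, RasGAP1 and PTP-ER were lower in both, against 16.0% and 18.6%. Cbl was lower in C14L, and kek1 was neither. By limma Spred, Cbl, RasGAP1 and PTP-ER fell in C14L (adjusted p from 2.34e-05 to 0.00953), against 25.2% of the genes tested. Spred, RasGAP1 and PTP-ER fell at C12-70min (limma, adjusted p from 0.00112 to 0.00229), against 34.4%. The part of the inhibitors that fell at C12-70min is close to that share, and Cbl could not be tested there. Mkp3, a MAP kinase phosphatase, was at 24.0, 119 and 62.4 CPM in C12, C14L and C12-70min, and it rose in C14L (limma, adjusted p = 0.0411). Its differences at C12-70min from C12 (1.21 ± 0.81) and from C14L (-1.04 ± 0.81) did not pass (limma, adjusted p = 0.225 and 0.307).

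**Figure D3:**
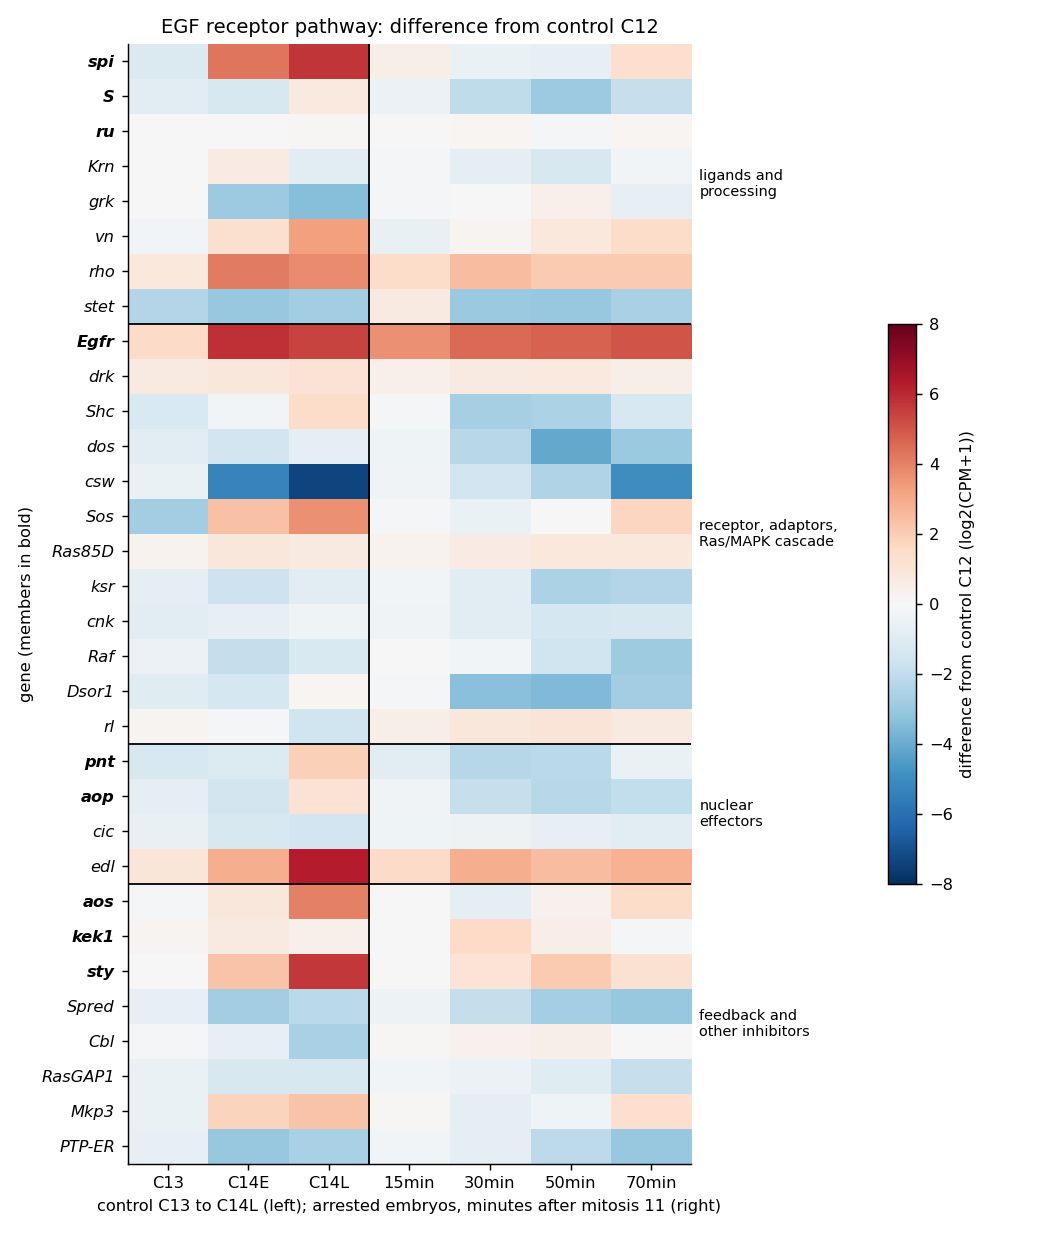
Difference of each condition mean from control C12 (colour, log2(CPM + 1)) for 32 pathway genes in rows, grouped by role with the 9 genes in bold, and the conditions in columns. The mean of Egfr is well above C12 in all 4 arrested columns, but its C12-15min embryos had 0.369 and 140 CPM. spi is far above C12 only in C14E and C14L, and aos and sty have their largest difference in C14L.

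**Figure D4:**
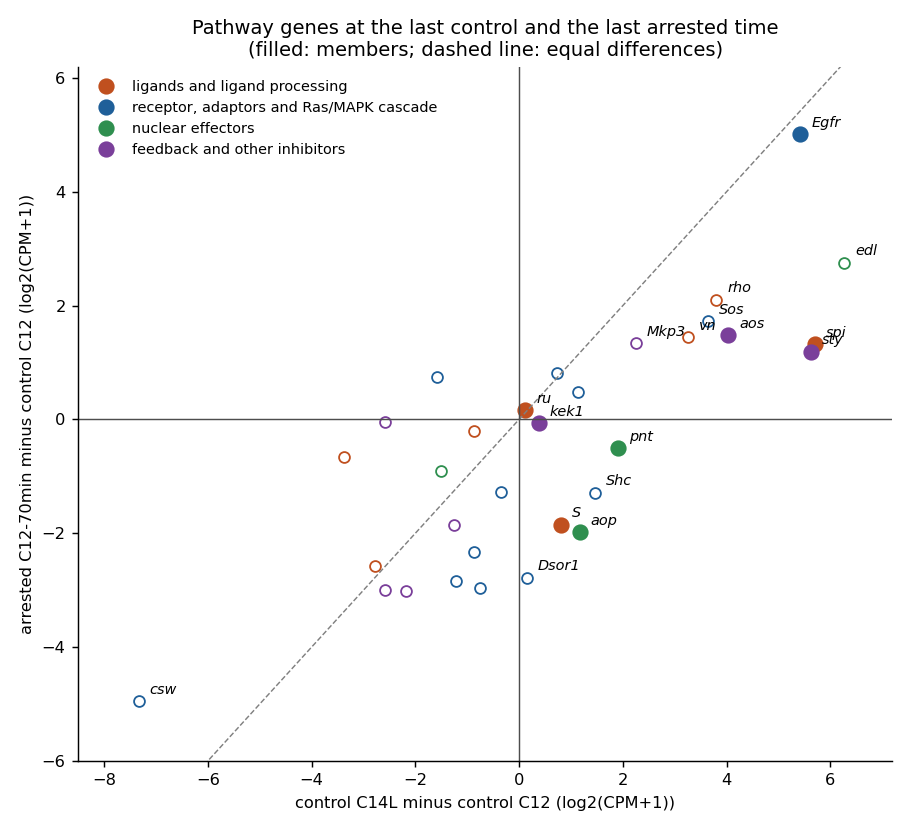
Difference from control C12 in log2(CPM + 1) of 32 pathway genes in C14L (x axis) and at C12-70min (y axis), both set against the same C12 embryos, with the 9 genes filled. Egfr lies near the dashed line of equal differences at 5.42 and 5.01, and spi (5.71 and 1.32), aos (4.04 and 1.48) and sty (5.64 and 1.19) lie far below it.

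Over the 8 condition means, S and aop had the most similar courses within the 9 genes (Pearson r = 0.97 of log2(CPM + 1)). Among the 6437 genes that reached 10 CPM in any condition, the course most like that of Egfr was Ppa (r = 0.99), that of spi was Pex6 (r = 0.99) and that of sty was Dll (r = 0.997). For S it was CG10809 (r = 0.99), for aop CG6094 (r = 0.995), for pnt CG5961 (r = 0.98) and for aos Brca2 (r = 0.98). These are the highest of many correlations over 8 points that share the same libraries, and they are given as a description.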

How the data were processed

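Reads of single embryos were trimmed by the authors with Trim Galore 0.6.0, aligned to dm6 with STAR 2.5.3a and counted on genes with featureCounts of Subread 1.6.0, unique alignments only. The authors then calculated CPM with DESeq2 and deposited, for 17735 genes, condition averages of CPM as log2 after adding 1. From these log2 values, fold changes above 1.5 between means were counted without a test. Totals of assigned reads and whole reads of single embryos were solved from the 9 decimals, up to 2000 CPM for 2 embryos and 10 CPM for 3 embryos. In simulated means made with the same totals, all 1563 single solutions among 1600 were right. Because every combination is listed, this outcome checks the search only and not the totals. The simulated means also did not reach the highest CPM solved. The values of 12 embryos in 6 conditions were fitted with limma 3.58.1 in R 4.3.3, with a trend and Benjamini-Hochberg adjustment, for genes with at least 1 CPM in 1 of the 6 means. In 10 simulations of C12-70min against C12, 99.8% of genes changed 4-fold were found with 5.10% false calls. The simulations gave all genes the same spread between embryos and changed only 200 genes. They do not give the power for genes whose embryos differ strongly, such as Egfr. The tests at 15, 30 and 50 minutes, the 3 solutions of Egfr and the fit without C12-15min were added after seeing the data. Members and gene lists were chosen with earlier results of these data known. All 9 members, rho, vn and listed genes reaching 10 CPM could be named, and for each member reaching 10 CPM the most correlated genes. Alternatives were other pseudocounts, thresholds, filters, centring and leaving out embryos. Positions and exon lengths are from Ensembl 115. Figures were drawn with matplotlib 3.10.9.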

Additional observations from a re-analysis of the deposited data

Results flagged for a closer look

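The change from C12 to C12-70min differed from the change from C12 to C14L for 6 of the genes. Both changes start from the same C12 embryos, so the test of their difference is the limma comparison of C12-70min with C14L. The difference was -4.39 on the log2 scale for spi, -2.62 for S, -2.38 for pnt, -3.17 for aop, -2.47 for aos and -4.44 for sty. The calls of pnt and aos were lost without the C14L embryo with more reads. For S, pnt and aop the embryos moved in opposite directions, with both C14L embryos above and both C12-70min embryos below the 2 C12 embryos on the deposited scale. With centred values the pnt mean at C12-70min was 0.15 above that of C12. The rise of S in C14L and the fall of pnt at C12-70min did not pass their own tests. Age and injection differ between these conditions along with the arrest and cannot be told apart from it.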

How the results depend on the processing

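Among the counts of members, those for C12-70min against C14E moved most. The number of members higher at C12-70min, 0 as reported, was 3 with a pseudocount of 0.1 and 2 with centred values, and it ran from 0 to 1 with 1 embryo left out. The number lower, 4 as reported, was 2 with a fold change above 2. The limma calls ran from 3 to 5 for C14L against C12, where 3 was reached without the C12 embryo with fewer reads, and from 1 to 2 for C12-70min against C12 with 1 embryo left out, where 1 was reached without that embryo or either C12-70min embryo. A fit with 1 embryo in a condition assumes that it varies like the other conditions. Centring moved the share of higher genes among all genes called from 54.8% to 79.7% for C14L against C12. For C12-70min against C14E the share went from 41.3% to 62.9%. For C12-70min against C12 it went from 47.4% to 84.9%, but there the shift of 0.65 alone exceeded a fold change of 1.5. Genes with no reads in either condition then counted as higher, so that share does not measure how the results depend on scaling. For C14L against C12 the shift of 0.56 lay just below the threshold. No called difference of a member from C12 changed sign under any setting run, while the uncalled difference of pnt at C12-70min went from -0.50 to 0.15 with centred values. The other counts stayed within 1.5 times of those reported. No paired analysis was possible because the columns are condition means and carry no replicate numbers. Counts of ru and kek1 are limited by depth.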
